A study of Rattus norvegicus and Mus musculus with 24 samples.

Results

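A set of 51 genes of DNA replication and S phase were followed in kidney of Ctns knockout (KO) and wild-type (WT) animals, in mouse and in rat. They were chosen by name, from the licensing of replication origins to the repair of replicating DNA, with earlier results of these data known, and the rule that lists them uses no measured value. All 51 were among the 17376 gene symbols of the mouse table, and 48 were among the 14931 symbols of the rat table. POLA1, RRM2 and EXO1 were not analysed here in rat.

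CTNS encodes cystinosin, the transporter that carries cystine out of lysosomes, and its loss causes cystinosis. The mice carried the knockout on a C57BL/6 background, with 4 KO and 4 WT animals, and the rats carried it on a Sprague-Dawley background, with 8 KO and 8 WT animals. Controls were littermates in both lines, and neither group is labelled as having received a treatment. The rats carry the numbers 17 to 24 and 25 to 32, odd for WT and even for KO, and the labels do not say what divides these 2 ranges, so each range was also compared by itself. The study's mice are described as female, in one place for all experiments and in another for cell cultures and mechanistic work, and several ages are named without tying one to these libraries. Age and sex of the sequenced rats were not given in the sources used here. Sources differ on the material, which is called kidney cortex in one place and microdissected proximal tubules in another. Single symbols stand for genes in a human style spelling, so that several rodent genes may share 1 symbol.

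Each mouse library held 19309449 to 44449859 reads over all symbols, and each rat library 24684097 to 40629873. Levels are given as CPM, the reads of a gene per 1000000 reads of its library. CTNS lay at 15.5 to 16.9 CPM in KO mice and 38.98 to 47.4 in WT mice, with a log2 fold change of -1.46 (SE 0.08, adjusted p = 1.82e-07) by limma. In rats the 2 genotypes overlapped, with 16.8 to 22.96 CPM in KO and 18.99 to 26.4 in WT and a log2 fold change of -0.22 (SE 0.08, adjusted p = 0.0511) by edgeR, so the read count of this gene does not check the genotype label of each rat. It was called lower in rats 25 to 32 by themselves (-0.32, SE 0.10, adjusted p = 0.0111), not in rats 17 to 24 (-0.12, SE 0.10, adjusted p = 0.599), and over all rats in 5 of 16 fits with 1 rat left out. Every proximal tubule marker in the tables had reads in every animal. Distal nephron markers were also present, at 8331 to 11117 summed CPM over 8 genes in mouse.

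Before each S phase, a cell loads the MCM2 to MCM7 helicase onto its origins with the help of the origin recognition complex, CDC6 and CDT1, while geminin (GMNN) blocks a second loading. CDC45 and the GINS complex then turn the loaded helicase on, primase and the DNA polymerases copy the strands, and the PCNA clamp, set in place by replication factor C, holds the polymerases on the template. Most kidney tubule cells of an adult rodent are out of the cell cycle, and many of these genes are known targets of the E2F transcription factors, which switch them on as a cell leaves quiescence. In bulk tissue, more cells in S phase and more transcript per cell cannot be told apart.

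DNA replication transcripts were higher in KO kidney of both species. Of the 50 members tested in mouse, 23 rose in KO (adjusted p below 0.05, limma), where 6.37% of all symbols tested were called higher. Of the 47 tested in rat, 37 rose (edgeR), where 15.2% of all symbols were called higher. The median log2 fold change of the members was 0.39 in mouse and 0.64 in rat, and that of all symbols was 0.01 and -0.02. No member was called lower in mouse by limma, edgeR or DESeq2, with 0, 0 and 1 member lower at an unadjusted p below 0.05, and 2.33% of all symbols were called lower. In rat no member was called lower by edgeR or DESeq2 and none was lower at an unadjusted p below 0.05 by either tool, where 12.3% of all symbols were called lower.

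CPM are not corrected for gene length and are therefore compared within a gene, or between animals as a sum over the same genes. Such a sum is weighted towards the members with the most reads. Summed over the 51 members, the KO mice had 606 to 664 CPM and the WT mice 420.0 to 480.3, a ratio of the means of 1.38. The same sum over the 48 members of the rat table was 540 to 747 in KO and 438 to 496 in WT rats, a ratio of 1.42. Neither species had a KO animal within the WT range of this sum. In CPM the sums of the rats were ordered by genotype and number range, with no overlap between neighbours. WT 25 to 31 were lowest (438 to 456), then WT 17 to 23 (465 to 496), KO 18 to 24 (540 to 620) and KO 26 to 32 (720 to 747). The gap between the 2 WT ranges was not seen in the edgeR test, which scales the libraries otherwise. There the members' median log2 fold change, WT 25 to 31 over WT 17 to 23, was -0.004, with 4 called higher and 0 lower. Gene by gene, every KO animal was above every WT animal for 32 of 50 members in mouse (64%, against 15.6% of all symbols) and for 23 of 47 in rat (48.9%, against 5.21%). With the scaling used in the tests in place of the library total, these counts were 29 in mouse, against 9.26% of all symbols, and 17 in rat, against 3.89%. GINS1, PCNA and TK1 are among the members whose rat genotypes were separate in CPM and overlapped with that scaling.

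**Figure D1:**
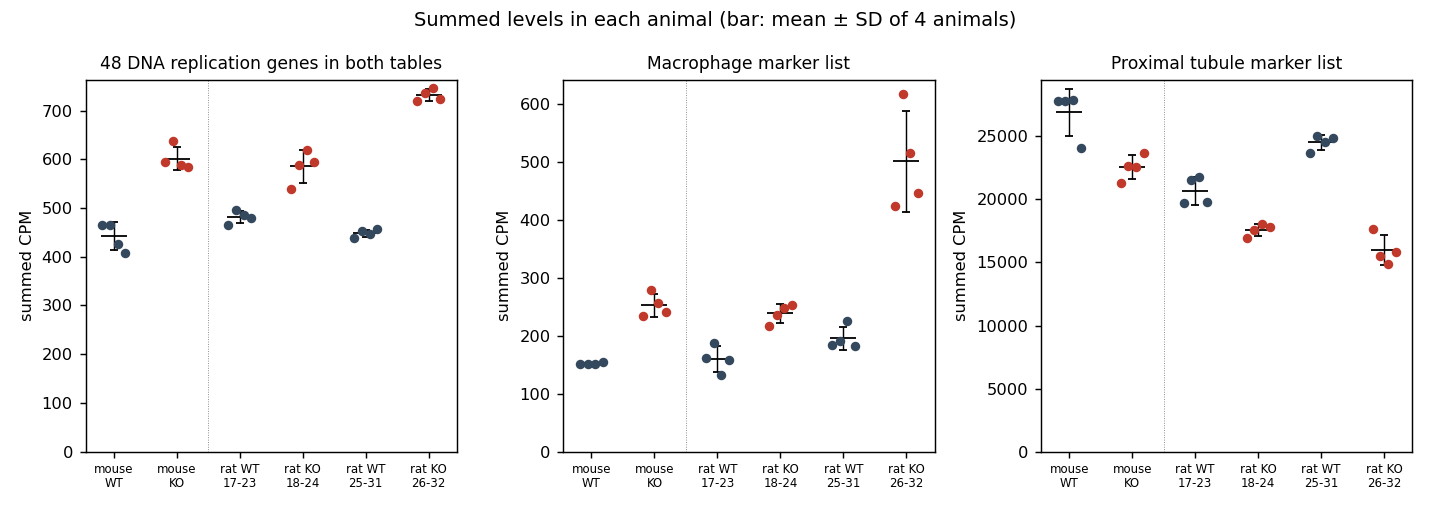
Summed CPM in each animal (points; black bars give the mean and SD of 4 animals) for the 48 DNA replication genes in both tables and for the macrophage and proximal tubule marker lists, with the vertical axes starting at 0. The KO rats 26 to 32 lie highest for the replication genes, between 720 and 747, and also highest for the macrophage list.

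The promoters of these genes are shown because most members tested in rat rose. RefSeq windows of the rat genome (GRCr8), from 250 bases before to 50 bases after the annotated start, were found for 44 of the 51 members. A search for 4 E2F-type words of 8 letters (TTTGGCGC, TTTCGCGC, TTTCCCGC and TTTGCCGC, read on both strands) found a match in the windows of 23 of these 44 members, or 52.3%, against 2.37% of the 27457 genes with a window. CCAAT, the word read by NF-Y, was found on either strand in 26 members (59.1%) and in 39.6% of all genes. Of the 32 members with a window that rose in rat, 18 held an E2F-type word, and of the 9 that were tested and not called, 3 did. Among the members that rose in rat without a word were CDC45, CHAF1B and BRCA1, by log2 values of 1.30, 1.38 and 1.20. The windows of 6 members, picked by name and not as a sample of the rest, follow, with every E2F-type word in capitals. DTL, CLSPN, MCM3 and MCM5 rose by log2 values of 1.33 to 3.08 over both species, PCNA by 0.24 and 0.36, and TIPIN was not called in either.
DTL (chr13:105685872-105686171, minus strand): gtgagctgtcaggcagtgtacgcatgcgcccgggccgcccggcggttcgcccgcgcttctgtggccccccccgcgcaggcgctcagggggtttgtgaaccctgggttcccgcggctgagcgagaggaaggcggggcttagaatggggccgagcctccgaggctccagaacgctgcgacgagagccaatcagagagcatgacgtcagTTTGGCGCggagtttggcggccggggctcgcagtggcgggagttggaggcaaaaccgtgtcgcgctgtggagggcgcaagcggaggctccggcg
CLSPN (chr5:144134387-144134686, plus strand): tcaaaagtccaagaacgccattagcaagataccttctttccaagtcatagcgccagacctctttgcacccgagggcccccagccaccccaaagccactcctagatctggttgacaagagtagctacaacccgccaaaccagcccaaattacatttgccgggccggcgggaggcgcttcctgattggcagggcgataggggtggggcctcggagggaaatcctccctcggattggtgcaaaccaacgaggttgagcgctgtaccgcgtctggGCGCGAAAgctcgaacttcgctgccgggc
MCM3 (chr9:30733697-30733996, minus strand): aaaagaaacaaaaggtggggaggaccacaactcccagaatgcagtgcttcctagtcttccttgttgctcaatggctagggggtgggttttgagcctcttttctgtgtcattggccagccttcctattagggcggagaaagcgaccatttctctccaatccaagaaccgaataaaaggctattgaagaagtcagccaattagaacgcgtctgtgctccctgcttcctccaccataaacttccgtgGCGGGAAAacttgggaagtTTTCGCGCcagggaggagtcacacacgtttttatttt
MCM5 (chr19:13488563-13488862, plus strand): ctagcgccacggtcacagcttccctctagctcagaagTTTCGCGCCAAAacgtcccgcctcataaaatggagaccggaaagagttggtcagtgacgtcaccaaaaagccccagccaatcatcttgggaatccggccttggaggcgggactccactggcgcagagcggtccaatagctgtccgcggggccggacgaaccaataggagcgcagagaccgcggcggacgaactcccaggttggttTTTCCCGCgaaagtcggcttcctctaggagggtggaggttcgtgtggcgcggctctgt
PCNA (chr3:139955771-139956070, minus strand): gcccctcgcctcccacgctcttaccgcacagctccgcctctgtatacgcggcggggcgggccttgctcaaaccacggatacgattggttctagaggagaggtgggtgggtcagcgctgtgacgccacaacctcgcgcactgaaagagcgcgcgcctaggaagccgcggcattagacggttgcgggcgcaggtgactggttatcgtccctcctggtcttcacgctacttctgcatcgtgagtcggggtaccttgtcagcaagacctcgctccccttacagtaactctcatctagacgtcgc
TIPIN (chr8:73675841-73676140, plus strand): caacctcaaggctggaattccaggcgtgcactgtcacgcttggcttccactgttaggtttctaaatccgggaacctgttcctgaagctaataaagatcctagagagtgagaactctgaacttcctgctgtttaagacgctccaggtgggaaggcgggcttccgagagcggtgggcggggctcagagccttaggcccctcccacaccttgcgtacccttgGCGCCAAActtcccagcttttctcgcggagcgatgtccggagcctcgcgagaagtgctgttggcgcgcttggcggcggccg
The word lay 44 bases before the start in DTL and 31 bases before it in TIPIN. MCM3 held 2 words, starting 6 bases before and 14 bases after the start. MCM5 held 3, of which 2 share letters and are printed as 1 run, and the third started 8 bases before the start. In CLSPN the word lay after the start, and the PCNA window held none. A match describes these letters and is not a test of binding.

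Among the 11 licensing factors, 6 of 10 tested rose in mouse and 10 of 11 in rat. CDC6, which brings the MCM helicase to the origin, was at 0.426, 0.495, 0.507 and 0.571 CPM in the WT mice and at 1.84, 1.99, 1.99 and 2.23 in the KO mice. The rats ran from 0.165 to 0.503 (median 0.343) in WT and from 0.931 to 2.504 (median 1.94) in KO. The genotypes did not overlap in either species, and the log2 fold change was 1.90 (SE 0.22, adjusted p = 0.000134) in mouse and 2.27 (SE 0.24, adjusted p = 6.08e-06) in rat. MCM5, a helicase subunit, had 3.78, 5.23, 5.34 and 6.14 CPM in WT mice against 14.5, 15.03, 15.7 and 15.8 in KO mice. In rat it ran from 1.85 to 3.22 (median 2.73) in WT and from 4.11 to 18.01 (median 12.9) in KO. Again every KO animal lay above every WT animal, with log2 fold changes of 1.52 (SE 0.13, adjusted p = 1.76e-05) and 2.10 (SE 0.23, adjusted p = 6.56e-06).

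MCM3, which forms part of the same ring, was at 3.62, 3.77, 5.33 and 5.59 CPM in WT and 10.8, 11.2, 12.8 and 12.9 in KO mice. Its rat values were 2.76 to 3.53 (median 3.03) in WT and 4.91 to 15.9 (median 11.4) in KO. Both sets were separate, with log2 fold changes of 1.33 (SE 0.15, adjusted p = 0.00013) and 1.78 (SE 0.20, adjusted p = 9.66e-06). The helicase subunits did not move by 1 amount. In mouse MCM4, MCM6 and MCM7 rose by log2 values of 0.62, 0.37 and 0.58, and MCM2 was at 0.40 (SE 0.12, adjusted p = 0.0623). In rat all 6 subunits rose, from 0.41 for MCM7 to 2.10 for MCM5. The MCM6 call in mouse was lost without KO mouse 5 and without KO mouse 6.

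GMNN, the inhibitor of licensing, was in mouse at 12.02, 13.9, 14.2 and 14.3 CPM in WT and 11.7, 13.8, 14.3 and 14.8 in KO, and the 2 sets overlapped (log2 fold change -0.07 (SE 0.10, adjusted p = 0.756), interval of 2 SE -0.28 to 0.13). In rat it rose by 1.16 (SE 0.18, adjusted p = 0.000212), from 1.85 to 2.42 (median 2.099) in WT to 2.89 to 7.65 (median 4.96) in KO, with no overlap. CDT1, the protein that geminin holds in check, was at 0.34 (SE 0.18, adjusted p = 0.315) in mouse and rose by 1.51 (SE 0.19, adjusted p = 3.27e-05) in rat. ORC1, the large subunit of the origin recognition complex, had only 3 to 9 reads per WT mouse and 10 to 14 per KO mouse and did not pass the filter on low values. It rose by 1.85 (SE 0.35, adjusted p = 0.00113) in rat, on 2 to 12 reads per WT rat and 6 to 33 per KO rat. ORC6, another subunit, was at 0.16 and 0.12 and was not called in either species (adjusted p = 0.425 and 0.508).

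**Figure D2:**
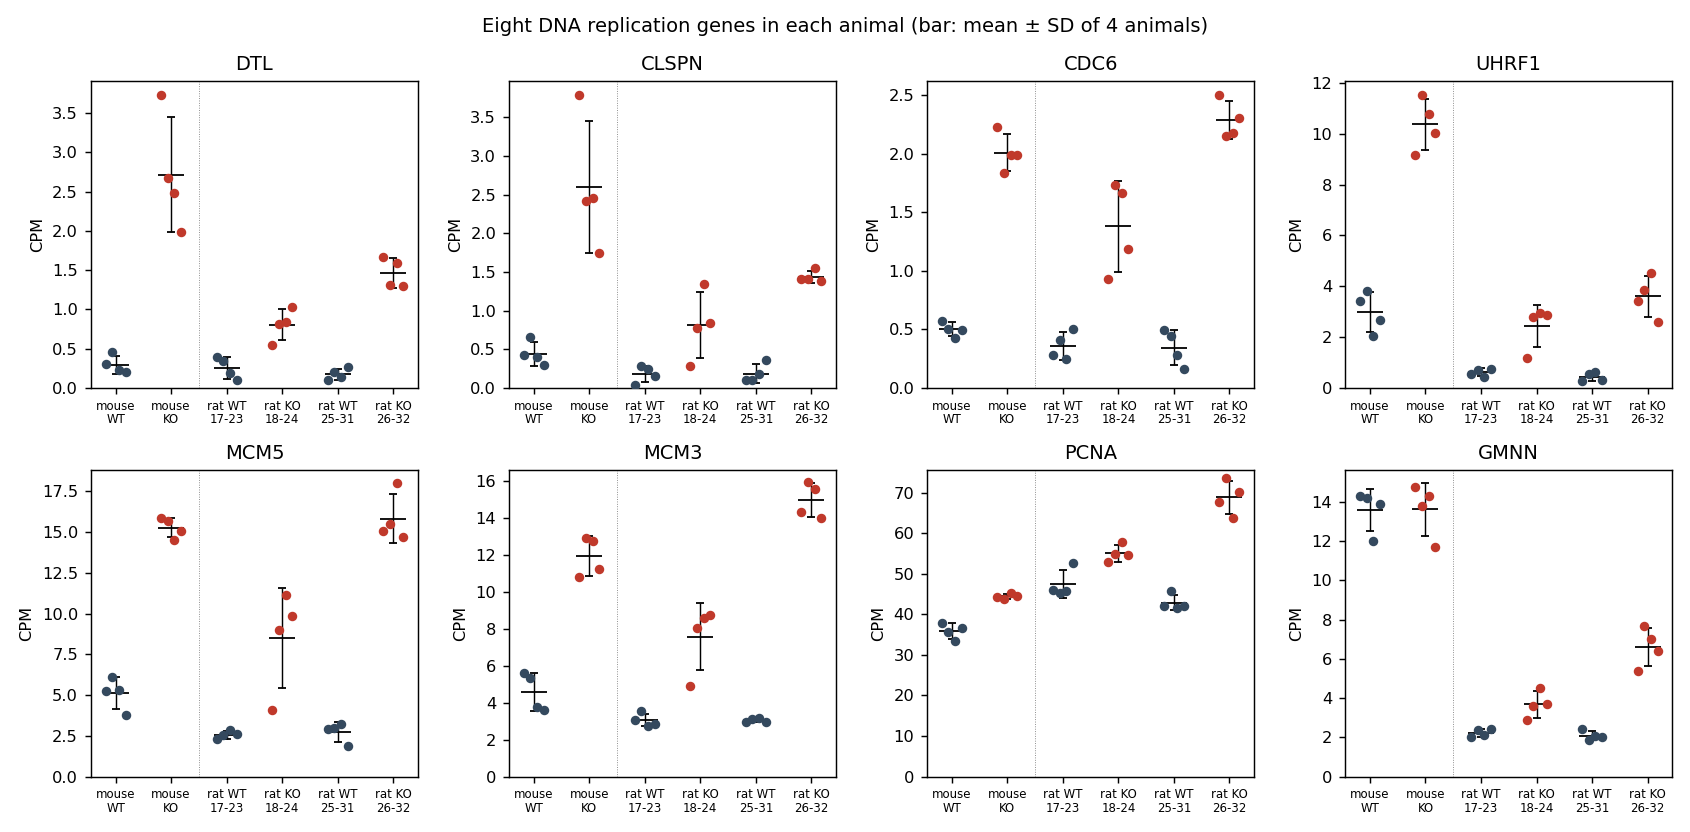
CPM of 8 members in each animal (points), with the mean and SD of each 4 animals as black bars and each vertical axis starting at 0. In CPM all KO animals lie above all WT animals of their species for DTL, CDC6, UHRF1, MCM5, MCM3 and PCNA, CLSPN overlaps in rat through KO rat 18, and GMNN is separate in rat only.

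Of the 6 helicase activators, 0 passed the test in mouse by limma, edgeR or DESeq2 (5, 5 and 4 at an unadjusted p below 0.05), and all 6 rose in rat. GINS1, a subunit of the GINS complex, was at 0.922, 1.02, 1.27 and 1.64 CPM in WT mice and 1.56, 1.91, 1.99 and 2.64 in KO mice, and the sets overlapped. In rat it ran from 0.385 to 0.956 (median 0.632) in WT and from 1.06 to 3.44 (median 2.33) in KO, without overlap in CPM. The log2 fold changes were 0.67 (SE 0.24, adjusted p = 0.105) and 1.78 (SE 0.26, adjusted p = 0.000127). CDC45, the partner of GINS in the active helicase, was at 0.45 (SE 0.17, adjusted p = 0.141) in mouse and rose by 1.30 (SE 0.20, adjusted p = 0.000228) in rat. GINS2 was at 0.70 (SE 0.23, adjusted p = 0.0896) and 1.14 (SE 0.24, adjusted p = 0.00201), and GINS3 at -0.17 (SE 0.18, adjusted p = 0.663) and 0.76 (SE 0.13, adjusted p = 0.000561). MCM10, which helps to activate the helicase, and GINS4 rose in rat by 0.65 and 0.64.

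Of the polymerase and primase subunits, 2 of 7 rose in mouse and 5 of 6 in rat. POLE, the catalytic subunit of the leading strand polymerase, was at 1.71, 1.89, 2.23 and 3.804 CPM in WT mice and 5.0997, 5.49, 6.07 and 7.58 in KO mice. Rat values were 2.102 to 3.29 (median 2.598) in WT and 3.91 to 7.44 (median 5.38) in KO. The genotypes were separate in both species (log2 fold change 1.31 (SE 0.23, adjusted p = 0.00364) in mouse, 0.91 (SE 0.12, adjusted p = 6.45e-05) in rat). POLE2, its second subunit, was at 0.15 (SE 0.18, adjusted p = 0.702) in mouse and rose by 1.51 (SE 0.26, adjusted p = 0.000443) in rat. POLA1, the catalytic subunit of the polymerase that extends primers, rose by 0.65 (SE 0.13, adjusted p = 0.00601) in mouse. POLD1, of the lagging strand polymerase, rose in rat only by the test within each species (0.29 in mouse, 0.53 in rat), and the difference between species did not pass (adjusted p = 0.449). PRIM2, a primase subunit, was at 0.12 and -0.05, neither called.

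Of the clamp, its loader and the lagging strand enzymes, 3 of 9 rose in mouse and 4 of 9 in rat. PCNA was at 33.3, 35.8, 36.5 and 37.8 CPM in WT mice and 43.8, 44.2, 44.5 and 45.3 in KO mice. Rats had 41.7 to 52.7 (median 45.5) in WT and 52.8 to 73.6 (median 60.9) in KO. In CPM no KO animal reached down to a WT animal, though the nearest rats nearly touched and overlapped with the scaling of the test, and the log2 fold change was 0.24 (SE 0.06, adjusted p = 0.0339) in mouse and 0.36 (SE 0.07, adjusted p = 0.00147) in rat. The mouse call was lost without WT mouse 4 and without any 1 of the 4 KO mice. FEN1, the nuclease that trims Okazaki fragments, rose by 0.43 (SE 0.12, adjusted p = 0.0345) and 0.55 (SE 0.13, adjusted p = 0.0064), and its mouse call was lost without WT mouse 4 or 7 or without KO mouse 5, 6 or 8. LIG1, the ligase that joins these fragments, was the single member called in mouse and not in rat among the 46 tested in both. Its mouse values were 4.55, 6.82, 6.85 and 7.48 in WT and 12.4, 12.9, 13.03 and 14.4 in KO, and its log2 fold change was 0.98 (SE 0.14, adjusted p = 0.000753) in mouse and 0.24 (SE 0.12, adjusted p = 0.137) in rat, with no call for the difference between species (adjusted p = 0.068). RPA3, of the single-strand binding complex, was at -0.02 in mouse (interval of 2 SE -0.24 to 0.20) and -0.03 in rat (-0.18 to 0.13). The loader subunits RFC2, RFC4 and RFC5 were not called in either species.

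Of the genes that supply deoxynucleotides, RRM2, the small subunit of ribonucleotide reductase, was at 3.73, 4.12, 5.76 and 5.98 CPM in WT mice and 10.99997, 12.8, 14.2 and 15.3 in KO mice, all higher in KO, and rose by 1.39 (SE 0.17, adjusted p = 0.000235). Its partner RRM1 rose by 0.38 (SE 0.07, adjusted p = 0.00306) in mouse and 0.25 (SE 0.05, adjusted p = 0.00092) in rat. TK1, thymidine kinase, was at 0.34 (SE 0.14, adjusted p = 0.156) in mouse and rose by 0.78 (SE 0.13, adjusted p = 0.000447) in rat, from 6.57 to 8.87 (median 7.71) to 9.47 to 17.6 (median 14.6) CPM, with every KO rat above every WT rat in CPM but not with the scaling of the test. TYMS, thymidylate synthase, was at -0.21 and 0.17, and DUT, which removes dUTP, was at 0.08 (interval of 2 SE -0.12 to 0.28) and 0.02 (-0.09 to 0.12), none of them called.

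Chromatin factors of the fork rose in 5 of 6 members in mouse and in all 5 tested in rat. UHRF1, which reads newly replicated DNA for maintenance methylation, was at 2.03, 2.68, 3.43 and 3.804 CPM in WT mice and 9.17, 10.1, 10.8 and 11.5 in KO mice. It ran from 0.28 to 0.754 (median 0.563) in WT rats and from 1.19 to 4.53 (median 2.896) in KO rats. Genotypes were separate in both species, with log2 fold changes of 1.76 (SE 0.18, adjusted p = 6.42e-05) and 2.41 (SE 0.24, adjusted p = 3.22e-06). DNMT1, the methyltransferase that UHRF1 recruits, was at 0.20 (SE 0.08, adjusted p = 0.147) and 0.16 (SE 0.05, adjusted p = 0.028). CHAF1B and CHAF1A, which deposit histones behind the fork, rose by 1.41 and 0.78 in mouse and by 1.38 and 0.45 in rat. ATAD2, a chromatin ATPase, rose by 1.02 and 0.68. HELLS, a chromatin remodeller, rose by 1.35 (SE 0.19, adjusted p = 0.000464) in mouse and is listed at 0 reads in all 16 rats, so no change was computed for it in rat and no level is read from this 0.

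The largest change of the members in each species lay in the group listed as fork protection and checkpoint, DTL in mouse and CLSPN in rat. DTL, which directs the destruction of CDT1 in S phase, was at 0.202, 0.229, 0.301 and 0.456 CPM in WT mice and 1.99, 2.48, 2.68 and 3.73 in KO mice. Rats had 0.0943 to 0.4 (median 0.191) in WT and 0.545 to 1.67 (median 1.16) in KO. The genotypes did not overlap in either species, and DTL rose by 3.08 (SE 0.31, adjusted p = 4.73e-05) in mouse and 2.30 (SE 0.29, adjusted p = 3.6e-05) in rat, on 3 to 11 reads per WT rat. CLSPN, claspin, the mediator of the replication checkpoint, was at 0.292, 0.393, 0.421 and 0.659 in WT and 1.75, 2.41, 2.45 and 3.78 in KO mice. Its rat values were 0.04 to 0.363 (median 0.165) in WT and 0.289 to 1.55 (median 1.36) in KO, on 1 to 11 and 9 to 47 reads, and the lowest KO rat fell below the highest WT rat. The log2 fold changes were 2.45 (SE 0.31, adjusted p = 0.00022) and 2.49 (SE 0.36, adjusted p = 0.000129). TIMELESS rose by 0.52 and 0.82, while its binding partner TIPIN was at 0.18 (SE 0.10, adjusted p = 0.338) and -0.02 (SE 0.12, adjusted p = 0.904).

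Of the repair genes, EXO1, a nuclease of mismatch repair and end resection, was at 0.135, 0.164, 0.24 and 0.304 CPM in WT mice and 0.858, 0.949, 1.29 and 1.301 in KO mice, on 5 to 8 and 25 to 34 reads, and rose by 2.27 (SE 0.35, adjusted p = 0.00103). BRCA1, of homologous recombination, was at 0.585, 0.661, 0.819 and 1.17 in WT and 3.44, 3.57, 3.95 and 4.48 in KO mice. It ran from 0.76 to 1.904 (median 1.47) in WT rats and from 2.75 to 4.86 (median 3.33) in KO rats. All KO animals were above all WT animals in both species, with log2 fold changes of 2.20 (SE 0.23, adjusted p = 6.42e-05) and 1.20 (SE 0.17, adjusted p = 0.000106). BRCA2, its partner in this pathway, was at 0.37 (SE 0.17, adjusted p = 0.229) in mouse and 0.34 (SE 0.11, adjusted p = 0.0287) in rat.

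**Figure D3:**
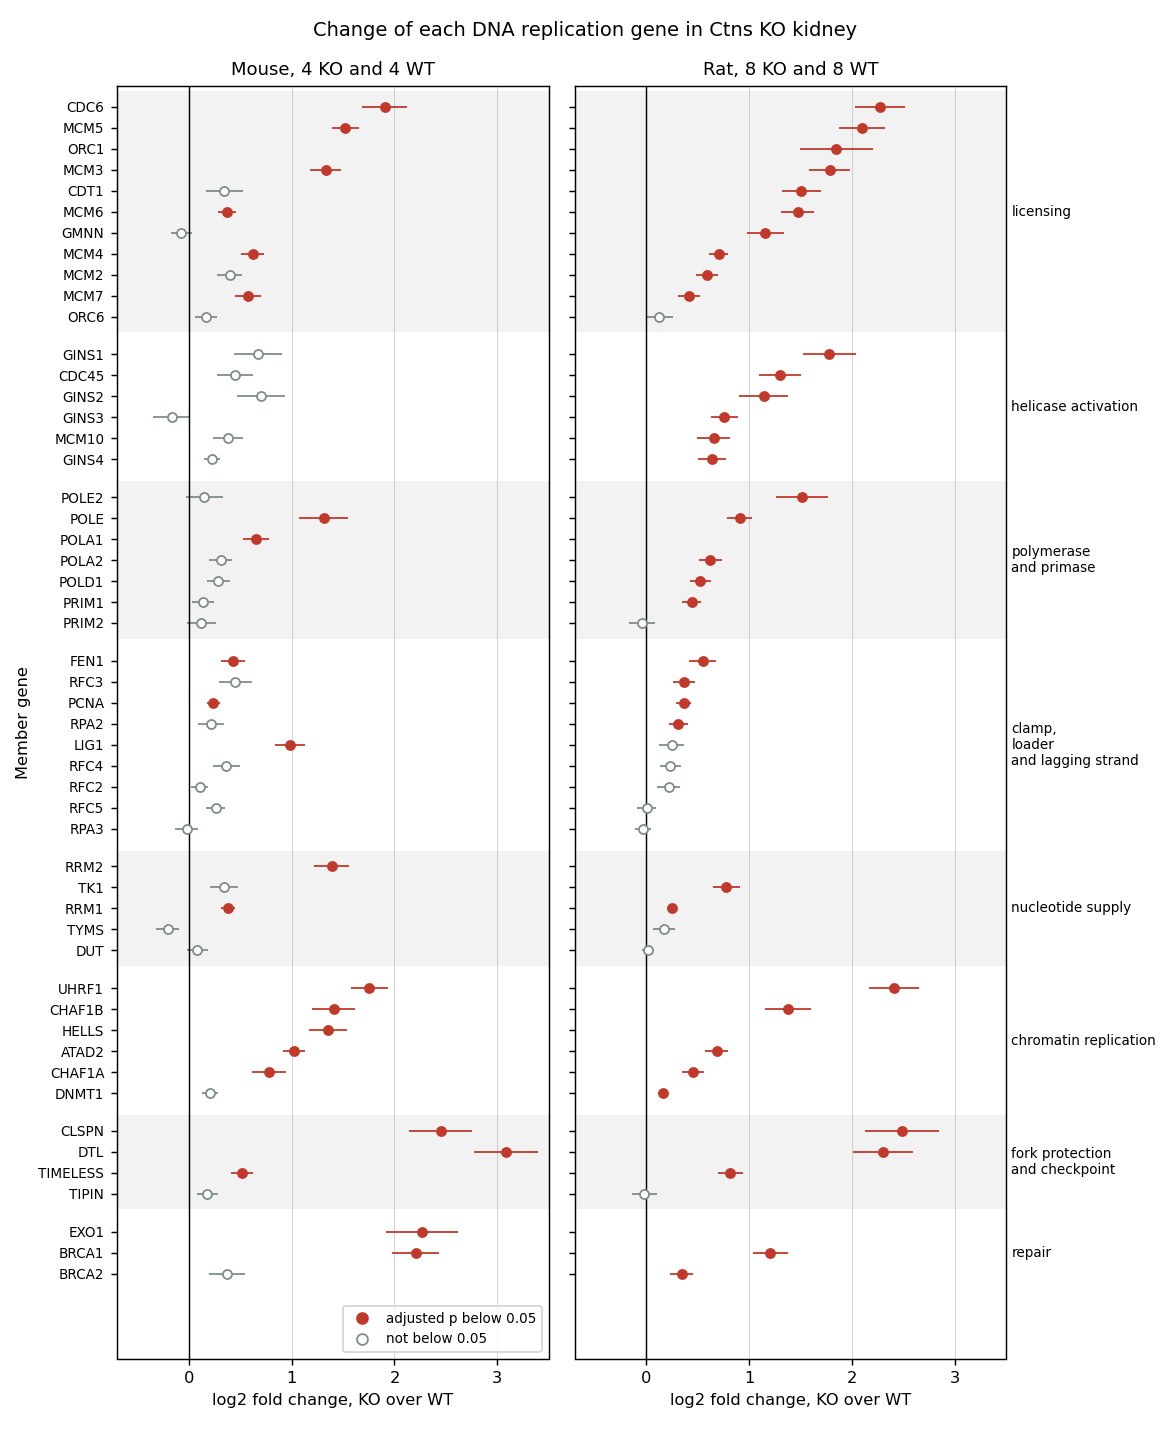
Log2 fold change of KO over WT for each member (points, with SE bars), in mouse (left) and rat (right), grouped by role; filled red points have an adjusted p below 0.05. Changes run from -0.21 to 3.08 in mouse and from -0.05 to 2.49 in rat, and members without a point were not tested in that species.

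In a list of 46 other replication genes, 15 of the 43 tested in mouse rose (limma), where 6.37% of all symbols were called higher. Their median log2 fold change was 0.11, and 0 were called lower by limma, edgeR or DESeq2 or at an unadjusted p below 0.05. In rat 16 of 40 rose, where 15.2% of all symbols were called higher, and 3 were called lower (median 0.09). PCLAF, a PCNA-binding factor, rose by 2.18 in mouse and 2.39 in rat, FANCI, of interstrand crosslink repair, by 1.74 and 0.95, and ASF1B, a histone chaperone, by 1.15 and 2.47. RAD51AP1, a recombination factor, rose by 1.83 in mouse, and TICRR, which helps to load CDC45, by 2.24 in rat. The 3 called lower in rat, named after their values were seen, were MCM8 (-0.31), POLD4 (-0.54) and UNG (-0.48). They are 7.5% of the 40, below the 12.3% of all symbols called lower in rat. Of genes outside replication itself, the proliferation marker MKI67 was at 4.16 to 7.30 CPM in WT mice and 22.3 to 45.7 in KO mice and rose by 2.55 (SE 0.25, adjusted p = 0.000398), and by 2.18 (SE 0.14, adjusted p = 5.64e-08) in rat. CDKN1A, the inhibitor of cyclin-dependent kinases, rose as well, by 2.87 and 3.24.

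The rat numbers divided the result. In rats 17 to 24, 21 of 47 members rose in KO (edgeR, 4 groups in 1 fit), where 5.05% of all symbols were called higher and 1.91% lower. In rats 25 to 32, 38 of 47 rose, where 23.7% were called higher and 26.2% lower. No member was called lower in either range, and none was lower at an unadjusted p below 0.05. The median log2 fold change of the members was 0.42 in rats 17 to 24 and 0.83 in rats 25 to 32. The 21 members called in the first range were all called in the second, which called 17 more, and the changes in the 2 ranges had a Pearson correlation of 0.95 and a Spearman correlation of 0.95 across the 47 members, which are genes and not independent replicates. The log2 change was larger, meaning more positive, in rats 25 to 32 for 44 of 47 members (93.6%, against 49.4% of all symbols). This was not particular to the members. The change was also larger there for 10 of 10 macrophage, 7 of 8 lymphocyte, 7 of 8 fibroblast and matrix and 4 of 5 distal nephron markers. It was more negative there for 7 of 8 proximal tubule and 6 of 7 podocyte and endothelium markers. The median log2 fold change of the proximal tubule markers was -0.25 in rats 17 to 24 and -0.84 in rats 25 to 32.

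Tested as a difference between the ranges, 11 of 47 members were called, all with the larger change in rats 25 to 32, where 7.10% of all symbols were called in that direction and 7.64% in the other. These were CDC45 (1.09 on the log2 scale), CHAF1B (0.96), MCM3 (0.84), GMNN (0.81), MCM6 (0.80), POLA2 (0.59), POLD1 (0.53), MCM7 (0.52), RPA2 (0.49), RFC3 (0.41) and PCNA (0.33). MCM3 shows the pattern, at 4.91 to 8.76 CPM in KO rats 18 to 24 and 14.02 to 15.9 in KO rats 26 to 32, with WT rats at 2.76 to 3.53 and 2.97 to 3.19. MCM6 was at 9.66 to 16.96 and 23.3 to 24.3 in the same KO rats, and at 6.003 to 7.804 and 5.704 to 6.17 in WT. In PCNA the KO rats moved from 52.8 to 57.9 to 63.8 to 73.6 and the WT rats from 45.2 to 52.7 to 41.7 to 45.7. The KO values of all 3 genes were separate between the ranges. The CHAF1B call was lost in 10 of 16 fits with 1 rat left out (adjusted p up to 0.0985). The count of 11 fell to 5 without KO rat 28 and to 7 without KO rat 20.

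Between WT rats of the 2 ranges, 4 of 47 members were called higher in rats 25 to 31 (PRIM2, FEN1, TK1 and RFC5), or 8.51%, below the 11.7% of all symbols called higher. KO rat 18 was the lowest of the 8 KO rats for 26 of the 47 members, and without any 1 rat between 35 and 38 members were called in all rats.

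**Figure D4:**
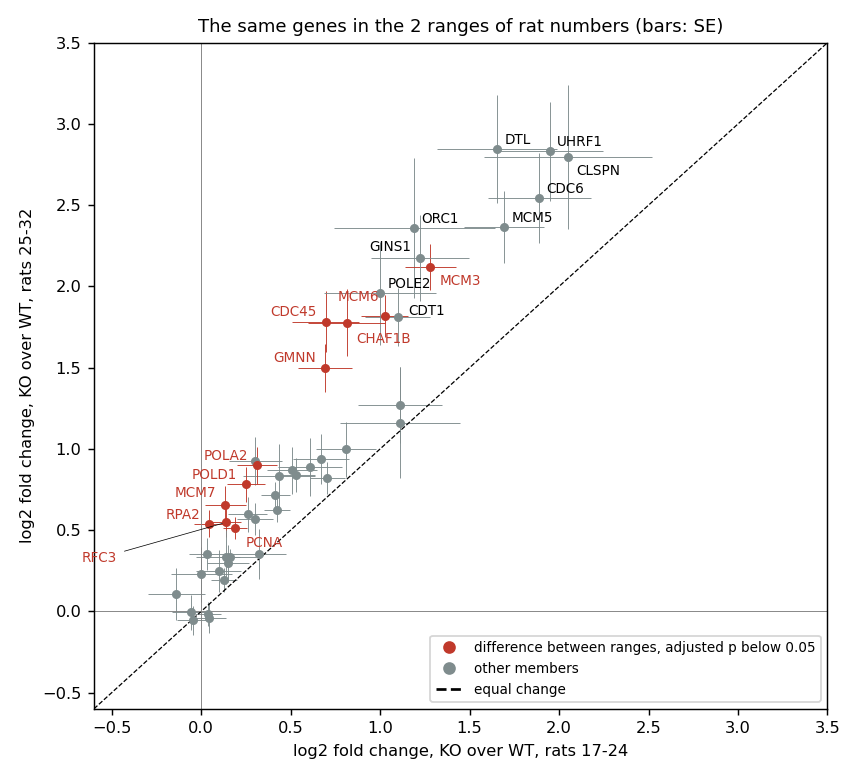
Log2 fold change of KO over WT in rats 17 to 24 (horizontal) and rats 25 to 32 (vertical) for 47 members, with SE bars and a dashed line of equal change. Red points are the 11 members whose difference between ranges has an adjusted p below 0.05, and 44 of the 47 points lie above the line.

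Mouse and rat could be compared for 46 members. Of these 18 rose in both species, 18 in rat only, 1 in mouse only and 9 in neither. So 94.7% of the mouse calls among them were also rat calls and 50% of the rat calls were also mouse calls. With 36 of the 46 called in rat, a high first share can arise from that number alone. The same overlap over all symbols tested in both species was not counted. The calls rest on 4 KO and 4 WT mice by limma and on 8 KO and 8 WT rats by edgeR. At an unadjusted p below 0.05, 37 of 50 members were higher in mouse and 38 of 47 in rat. The share of all symbols at that threshold was not counted. The 9 called in neither were DUT, ORC6, PRIM2, RFC2, RFC4, RFC5, RPA3, TIPIN and TYMS. Across the 46 genes, which are not independent replicates, the 2 species' log2 fold changes had a Pearson correlation of 0.74 and a Spearman correlation of 0.64. Tested directly, the genotype effect was larger in rat for 3 members (limma), where 1.24% of all symbols were called in that direction. They were GMNN (1.19 (SE 0.27, adjusted p = 0.0187)), MCM6 (1.08 (SE 0.24, adjusted p = 0.0196)) and GINS3 (0.98 (SE 0.23, adjusted p = 0.023)). MCM6 was at 20.6, 21.3, 24.7 and 25.6 CPM in WT mice and 28.1, 32.1, 32.3 and 32.5 in KO mice, and at 5.704 to 7.804 (median 6.14) in WT rats and 9.66 to 24.3 (median 20.2) in KO rats. GINS3 was at 2.16, 2.74, 2.83 and 2.85 in WT mice and 2.02, 2.28, 2.68 and 2.97 in KO mice, which overlap, and at 1.19 to 2.48 (median 1.93) and 2.695 to 4.46 (median 3.44) in WT and KO rats, which do not. This count was 1 with rats 17 to 24 alone, 17 with rats 25 to 32 alone and 5 with edgeR. With 1 added to every value it was 4, of which 3 had the larger effect in mouse, and GMNN and MCM6 lost their calls. The count was 1 without KO mouse 3 and 5 without WT rat 17.

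**Figure D5:**
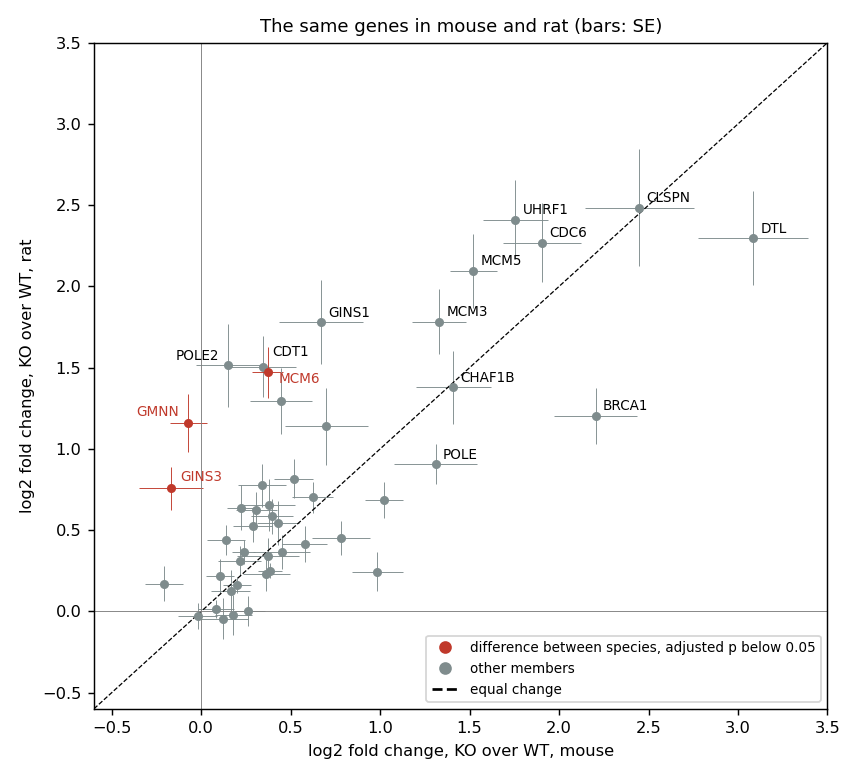
Log2 fold change of KO over WT in mouse (horizontal) and rat (vertical) for the 46 members tested in both, with SE bars and a dashed line of equal change. Red points are GMNN, MCM6 and GINS3, whose difference between species has an adjusted p below 0.05, and DTL, CLSPN, CDC6, UHRF1 and MCM5 lie at 1.52 to 3.08 in mouse and 2.10 to 2.49 in rat.

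Markers of other cell types moved with genotype beside the replication genes. Of all symbols, 6.37% were called higher and 2.33% lower in KO mice, and 15.2% higher and 12.3% lower in KO rats. All 10 macrophage markers rose in mouse and 9 of 10 in rat, with the exception of ADGRE1 (-0.05 (SE 0.16, adjusted p = 0.832)). Their summed level was 151 to 154 CPM in WT mice and 234 to 279 in KO mice. In rat it was 132 to 187 in WT 17 to 23, 217 to 253 in KO 18 to 24, 183 to 226 in WT 25 to 31 and 424 to 618 in KO 26 to 32. Lymphocyte markers rose in 6 of 7 tested in rat (17.8 to 26.3 CPM in WT 17 to 23, 29.7 to 33.8 in KO 18 to 24, 27.1 to 34.4 in WT 25 to 31 and 54.7 to 67.1 in KO 26 to 32) and in none of 9 tested in mouse by limma (7.96 to 11.5 and 10.49 to 16.6), where edgeR and DESeq2 also called none and each of the 3 tools had 1 at an unadjusted p below 0.05. Fibroblast and matrix genes rose in 4 of 8 in mouse, where their sum was 169.9 to 204 CPM in WT and 313 to 359 in KO, and in 6 of 7 in rat, where it was 262 to 292 in WT and 326 to 450.2 in KO of rats 17 to 24 and 229.8 to 284 in WT and 485 to 552 in KO of rats 25 to 32.

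Proximal tubule markers were called lower for 2 of 10 in mouse, against 2.33% of all symbols, and for 5 of 8 in rat, against 12.3%. In mouse their sum was 24087 to 27924 CPM in WT and 21340.3 to 23648 in KO. In rat it was 19736 to 21806 in WT and 16911 to 18062 in KO of rats 17 to 24, a ratio of the means of 0.85, and 23683 to 25047 in WT and 14908 to 17672 in KO of rats 25 to 32, a ratio of 0.651. The difference between ranges was called for 5 of the 8, with the lower log2 change in rats 25 to 32, against 7.64% of all symbols. It was also called in that direction for 1 of 7 podocyte and endothelium markers. The log2 change was called larger in rats 25 to 32 for 6 of 10 macrophage, 1 of 8 fibroblast and matrix and 1 of 5 distal nephron markers, against 7.10% of all symbols. The distal nephron sum of KO over WT was 1.04 within rats 17 to 24 and 1.56 within rats 25 to 32, and all 5 markers were called lower in WT rats 25 to 31 than in WT rats 17 to 23. Of the distal nephron markers 2 of 5 rose in KO rats, where 15.2% of all symbols were called higher. In mouse 0 of 8 did by limma, edgeR and DESeq2 (0, 0 and 1 at an unadjusted p below 0.05). Other lists also differed between WT rats of the 2 ranges, where 11.7% of all symbols were called higher in rats 25 to 31. Higher there were 5 of 8 proximal tubule (1 lower), 5 of 8 lymphocyte, 5 of 10 macrophage and 1 of 8 fibroblast and matrix markers. Podocyte and endothelium markers were lower for 5 of 7. The share of all symbols called lower was not counted for this comparison. Podocyte and endothelium markers were called lower for 1 of 8 in mouse, and in rat for 0 of 7 by edgeR and 1 by DESeq2 (1 at an unadjusted p below 0.05 by each). By range, 1 of 7 was called lower in KO of rats 17 to 24 and 4 of 7 in KO of rats 25 to 32. Of all symbols 1.91% and 26.2% were called lower in these ranges. No macrophage or proximal tubule marker was at 0 in any animal, and of the lymphocyte markers MS4A1 was at 0 in 1 WT rat. The part of any of these cell types in the change of the replication genes was not tested.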

How the data were processed

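Kidney RNA of 8 mice and 16 rats was sequenced from TruSeq Stranded mRNA libraries. The submitters' processing notes name bcl2fastq 2.20, STAR 2.7.3, DESeq2 1.24.0 and R 3.6.1 and the builds mm10 and rn5, while counting, annotation and filters were not given in the sources used here. In the mouse signal table, as deposited by the authors, 0.5 was added to each read count and the result scaled to the 75th percentile of the library. Whole reads were recovered for 99.0% of its values within 0.01, and edgeR on these reads called 1198 symbols, against 1143 with limma. The rat table, as deposited, holds expected counts raised by 1/6 and not scaled. That amount was taken off and the values were rounded. LIG1 in rat has some values that are not whole.

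Mouse values were tested with limma 3.58.1 (trend, robust) on log2 of the value, with no further pseudocount, over the 13132 symbols whose mean reached 0.01. Rat counts were tested with edgeR 4.0.16 (quasi-likelihood, TMM, filterByExpr), with genotype alone for all rats (11584 symbols) and with 4 groups of genotype and number range for the ranges (11839 symbols). The difference between species was tested with limma on values of both species scaled alike (10571 symbols). P-values were adjusted by Benjamini-Hochberg over all symbols tested, and an adjusted p below 0.05 was called. The SE of an edgeR log2 fold change is its size divided by the square root of F. All tests were tried on simulated data. The sources do not tell apart litters or extractions, so p-values measure the spread between these animals. Libraries of 1 genotype differed by more than sampling noise in every pair. The median log2 ratio over all symbols was 0.08 in mouse and 0.07 in rat with CPM, and 0.01 and -0.02 in the tests.

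The members, the other gene lists and the alternatives were chosen with earlier results of these data known. Values are given for PCNA, for members with the largest changes in each role or the largest differences between ranges or species, and for the other replication genes that have the 3 largest changes in mouse or in rat, and further members are named by role. Promoter windows come from RefSeq (GRCr8) by symbol. Alternatives were another pseudocount, filter, normalization, tool (DESeq2 1.42.0) or set of rats, and each animal left out.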

Additional observations from a re-analysis of the deposited data

Results flagged for a closer look

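Values of 21 named members were searched for an animal that stood apart within its genotype and species. Of 80 groups of values checked, 5 had such an animal, where chance gives about 1 in 20. PCNA reached 52.7 CPM in WT rat 23, above 41.7 to 46.1 in the other WT rats. The same rat had 3.02 CPM of GINS2, against 1.16 to 1.53 in the others. WT mouse 7 had 2.63 CPM of CDC45, against 1.83 to 1.90 in the other WT mice. KO mouse 3 had 28.1 CPM of MCM6, below 32.1 to 32.5 in the other KO mice, and WT mouse 4 had 2.16 CPM of GINS3, below 2.74 to 2.85.

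The genotype effect differed between the 2 ranges of rat numbers by edgeR's test of the difference, and the 5 largest of these differences (log2 change in rats 25 to 32 minus that in rats 17 to 24) were 1.09 for CDC45, 0.96 for CHAF1B, 0.84 for MCM3, 0.81 for GMNN and 0.80 for MCM6. Between species the difference (rat minus mouse, limma) was 1.19 for GMNN, 1.08 for MCM6 and 0.98 for GINS3.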

How the results depend on the processing

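The counts of members called kept their side and stayed within 1.5 times of their value under every alternative run for KO against WT in mouse (22 to 23), in rat (37 to 38), in rats 17 to 24 (18 to 20), in rats 25 to 32 (36 to 38) and for WT rats of the 2 ranges (4). With each animal left out in turn they were 20 to 26, 35 to 38, 17 to 22, 36 to 39 and 3 to 5. The count for the difference between ranges was 11 to 13 under other tools and filters and 5 to 13 with 1 rat left out. The count for the difference between species was 5 with edgeR on reads of both species, 1 with rats 17 to 24 alone and 17 with rats 25 to 32 alone, and 1 to 5 with 1 animal left out. With 1 added to every value it was 4, of which 3 had the larger effect in mouse. The cause of these changes was not tested. GMNN in mouse, at -0.07 on the log2 scale, ran from -0.14 to 0.00269 with 1 mouse left out. CHAF1B lost its call for the difference between ranges in 10 of 16 fits with 1 rat left out (WT 17, 19, 21, 25, 27 or 31, KO 18, 20, 24 or 28). GINS3 lost its call for the difference between species without WT mouse 1 or 7 or KO mouse 3 or 8 and with rats 17 to 24 alone, and MCM6 without WT mouse 4 or KO mouse 3, with rats 17 to 24 alone and with 1 added to every value, where GMNN lost it as well. No paired analysis was made because the sources do not say which KO and WT animals come from the same litter. Depth limits ORC1, EXO1, DTL and CLSPN most, which had under 15 reads in each WT animal.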
